A study of Homo sapiens with 6 samples.

Results

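Caveolae are small flask-shaped pits of the plasma membrane, and the 6 genes described here encode their caveolins and coat proteins: CAV1, CAV2, CAVIN1, CAVIN3, EHD2 and PACSIN2. They were chosen by gene symbol, and all 6 were found among the 15761 genes of the table. RNA was sequenced from wild-type SK-MES-1, a human cell line long established from a squamous carcinoma of the lung. In 3 cultures (exosome libraries) the complete medium contained exosomes at 20 µg/ml for 72 h, and 3 parallel cultures (control libraries) received none. Exosomes are small vesicles that cells release; the donor cells here were fibroblasts from lungs with idiopathic pulmonary fibrosis, in which the tissue scars. No group received vesicles of another source, and a single line was used. No label tells whether the cultures of a group were set up separately, so the p-values describe the spread among these libraries, which may be technical.

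CAV1 and CAV2 are membrane proteins that assemble together into oligomers, and CAV1 is needed for caveolae to form in non-muscle cells. Cavins are soluble proteins that coat the caveolin-rich membrane: CAVIN1 is required for the coat, and CAVIN3 joins it through CAVIN1. EHD2 is an ATPase that gathers at the neck of the pit and holds it at the surface, and PACSIN2 is an F-BAR protein that bends membrane. Caveolae flatten when a membrane is stretched, take part in signalling and lipid uptake, and are abundant in fibroblasts, endothelium, fat and muscle.

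CAV1 and CAV2 are neighbours on chromosome 7 whose transcripts were both lower with exosomes, as was EHD2, on chromosome 19. The sequence of 250 bases before a RefSeq transcript start (build GRCh38.p14) is shown for these 3 genes as the members whose lower call held in every alternative run. Such windows were listed for 4 of the 6 members (CAV1, CAV2, EHD2 and PACSIN2). Capitals mark the GC box letters GGGCGG on either strand, which occurred in 42.5% of 34943 windows of this length. All sequences are given 5′ to 3′ on the plus strand.
CAV2 (chr7:116499488-116499737): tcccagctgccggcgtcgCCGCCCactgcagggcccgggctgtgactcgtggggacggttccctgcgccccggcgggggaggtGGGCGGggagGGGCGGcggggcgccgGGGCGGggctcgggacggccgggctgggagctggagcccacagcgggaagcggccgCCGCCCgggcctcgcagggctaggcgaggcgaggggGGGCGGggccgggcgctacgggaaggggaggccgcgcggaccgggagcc
CAV1 (chr7:116524759-116525008): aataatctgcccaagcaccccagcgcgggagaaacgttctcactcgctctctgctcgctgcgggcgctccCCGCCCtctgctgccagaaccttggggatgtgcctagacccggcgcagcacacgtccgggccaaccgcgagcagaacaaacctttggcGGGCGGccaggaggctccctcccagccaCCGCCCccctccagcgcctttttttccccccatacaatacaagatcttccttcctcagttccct
EHD2 (chr19:47713172-47713421): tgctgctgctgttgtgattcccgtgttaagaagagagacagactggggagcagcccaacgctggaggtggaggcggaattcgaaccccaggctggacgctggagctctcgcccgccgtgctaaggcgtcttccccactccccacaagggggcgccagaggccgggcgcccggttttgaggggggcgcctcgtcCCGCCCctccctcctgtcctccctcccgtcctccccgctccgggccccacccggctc
The 2 caveolin starts lie 25271 bases apart. The GC box letters occurred 6 times before CAV2, 3 times before CAV1 and 1 time before EHD2. The TEAD letters GGAATG (in 11.9% of all windows) and the AP-1 letters TGANTCA (in 6.59%), both searched on both strands, were in none of these 3 windows. Of all windows, 99.0% had a lower GC content than that of CAV2 (83.2%), against 63.5% for CAV1 (63.6% GC) and 78.4% for EHD2 (69.6% GC).

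Library totals were 13038688 to 13334508 counts with exosomes and 11346639 to 12924251 in control. Exosome library 3 and control library 3 each differed more from the others of their group than those did from each other (chi-square per gene 7.41 to 9.72 against 3.18 with exosomes, and 12.1 to 16.2 against 2.31 in control). The share of counts on 13 mitochondrial genes was 5.98% to 7.003% with exosomes and 6.45% to 9.18% in control. Log2 fold changes followed the GC content of transcripts over all 12449 genes tested (Spearman correlation 0.617 across genes, which are not independent replicates). They also went with transcript length (-0.393). Values of the members and of the named genes are therefore also given with the trend of GC content and length removed within each library (corrected). The shares of GC content and length in the correction were not separated. Adjusted p-values come from edgeR's quasi-likelihood test with Benjamini-Hochberg adjustment over those genes.

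With exosomes the caveolin transcripts were lower, CAV1 by 39.6% and CAV2 by 47.0% of the control level, EHD2 and PACSIN2 were lower by smaller amounts, CAVIN3 was higher and CAVIN1 did not pass the test. Thus 1 member was higher and 4 were lower, where 51.7% of all genes tested were called (25.6% higher, 26.1% lower; scaled by library totals alone, 3811 genes higher and 2496 lower in place of 3191 and 3244). DESeq2 and limma-voom also gave 1 higher and 4 lower. Corrected, 0 members were higher and 6 were lower in edgeR's test, where 35.4% of genes were called (18.2% higher, 17.3% lower); at an unadjusted p under 0.05 the corrected count of higher members was also 0, and no other tool was run with the correction. The median log2 fold change of the 6 members was -0.25 (corrected -0.52), beside -0.0042 (corrected -0.0032) over all genes tested. Reads of the 6 genes together made up 1902 to 1973 CPM (counts scaled to a common library total) with exosomes and 2389 to 2600 CPM in control. In bulk RNA of this kind, fewer cells expressing a gene and less RNA per cell cannot be told apart.

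CAV1 was the most abundant member per unit of transcript length. Its level was 175.7, 188 and 196 FPKM (fragments scaled to transcript length and library size, as the authors deposited) in exosome libraries 1 to 3, against 285, 293 and 298 FPKM in control libraries 1 to 3. The groups did not overlap, as in 59.5% of all genes tested (24.5% with every exosome library below every control library), and the highest exosome library lay well below the lowest control library. The means were 187 ± 10.01 FPKM with exosomes and 292 ± 6.62 FPKM in control (SD, n = 3 each here and below). CAV1 fell by 39.6% (log2 fold change -0.73 ± 0.075, SE; 95% confidence interval -0.88 to -0.57; adjusted p = 1.61e-07, edgeR). With the trend removed the value was close to this, at -0.68 ± 0.059 (adjusted p = 2.66e-08, edgeR). By mean FPKM it ranked 178 of the 15761 genes with exosomes and 89 in control. The gene lies on chromosome 7 from 116524785 to 116561184 (GRCh38, plus strand), and its longest transcript has a GC content of 46.2%.

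CAV2, the partner of CAV1, had the largest uncorrected difference of the 6 members. Its level was 37.2, 37.9 and 39.6 FPKM in exosome libraries 1 to 3, against 61.8, 64.2 and 78.8 FPKM in control libraries 1 to 3. Control library 3 stood above the other controls, and no exosome library reached any control library. CAV2 fell by 47.0% (means 38.2 ± 1.24 FPKM with exosomes and 68.3 ± 9.18 FPKM in control; log2 fold change -0.92 ± 0.086, adjusted p = 4.18e-08, edgeR). Corrected, the log2 fold change was -0.71 ± 0.071 (adjusted p = 4.26e-07, edgeR). Without control replicate 3 it was -0.80, and corrected -0.60, against -0.67 for CAV1, so the corrected order of the caveolins turned. The gene spans positions 116287380 to 116508541 of chromosome 7 (GRCh38, plus strand), and 76 exon bases are shared with the antisense gene AC002066.1. The labels do not say whether the counting used strand, so reads on those 76 bases cannot be told apart.

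CAVIN1, which encodes the main coat protein, was nearly level between the groups. It had 172, 150.5 and 152 FPKM in exosome libraries 1 to 3, against 152, 145 and 172 FPKM in control libraries 1 to 3. The groups overlapped, with library 1 the highest of the exosome group and library 3 the highest of the control group. The means were 158 ± 11.97 FPKM with exosomes and 156 ± 13.9 FPKM in control, and the log2 fold change of -0.061 ± 0.081 did not pass (95% confidence interval -0.23 to 0.11; adjusted p = 0.549, edgeR). Scaled by library totals alone, or without control replicate 3, its sign turned (0.021 and 0.018, neither past the threshold). Corrected, CAVIN1 was lower, by -0.36 ± 0.070 (adjusted p = 0.000551, edgeR). It lies on chromosome 17 from 42402452 to 42423517 (GRCh38, minus strand), and its transcript has a GC content of 59.9%.

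CAVIN3, a cavin that binds protein kinase C delta, was the only member called higher before correction. Its level was 82.3, 75.3 and 63.8 FPKM in exosome libraries 1 to 3, against 52.6, 55.5 and 54.2 FPKM in control libraries 1 to 3. The control libraries lay within a narrow range and every exosome library was above them, exosome library 3 by the least. The means were 73.8 ± 9.34 FPKM with exosomes and 54.1 ± 1.45 FPKM in control (log2 fold change 0.37 ± 0.089, adjusted p = 0.00169, edgeR). This direction turned with the correction, which gave -0.31 ± 0.093 (adjusted p = 0.0163, edgeR), and the corrected value missed the threshold without exosome replicate 1 or 2 (-0.30 and -0.29, adjusted p = 0.0566 and 0.0651, edgeR) and was smallest without control replicate 3 (-0.16, adjusted p = 0.0452, edgeR). No direction for CAVIN3 therefore held both with and without the correction. At 67.1%, its transcript has the highest GC content of the 6, and at 1174 bases it is the shortest. It lies on chromosome 11 from 6318946 to 6320647 (GRCh38, minus strand) and shares 557 exon bases with AC068733.3 on the opposite strand. The gene length behind its FPKM is 1270 bases. As the strand setting is not known, reads on the shared bases cannot be told apart, and this limits both its level and its call.

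EHD2, the neck ATPase, was lower in all exosome libraries, and its difference was larger after correction. It had 75.1, 71.2 and 70.8 FPKM in exosome libraries 1 to 3, against 80.7, 79.3 and 86.6 FPKM in control libraries 1 to 3. The groups did not overlap, but the gap between them was small. EHD2 fell by 16.85% (means 72.3 ± 2.41 FPKM with exosomes and 82.2 ± 3.90 FPKM in control; log2 fold change -0.27 ± 0.074, adjusted p = 0.00448, edgeR). Corrected, it was -0.61 ± 0.065 (adjusted p = 5.02e-07, edgeR). The gene lies on chromosome 19 from 47713343 to 47743134 (GRCh38, plus strand), and its longest transcript has a GC content of 61.6%.

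PACSIN2, the membrane-bending F-BAR protein, had 40.0, 36.1 and 35.3 FPKM in exosome libraries 1 to 3, against 42.8, 40.4 and 41.0 FPKM in control libraries 1 to 3. Exosome library 1 came within 1 FPKM of the lowest control library, and the groups did not overlap. PACSIN2 fell by 15.3% (means 37.2 ± 2.53 FPKM with exosomes and 41.4 ± 1.24 FPKM in control; log2 fold change -0.24 ± 0.077, adjusted p = 0.0126, edgeR). The uncorrected call was lost without exosome replicate 2 or control replicate 1 (adjusted p = 0.0809 and 0.08, edgeR) and with library totals alone (adjusted p = 0.0912, edgeR). Corrected, it was -0.43 ± 0.059 (adjusted p = 1.07e-05, edgeR) and passed without each library. The gene lies on chromosome 22 from 42835412 to 43015145 (GRCh38, minus strand) and shares 155 exon bases with ARFGAP3 on the same strand.

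**Figure D1:**
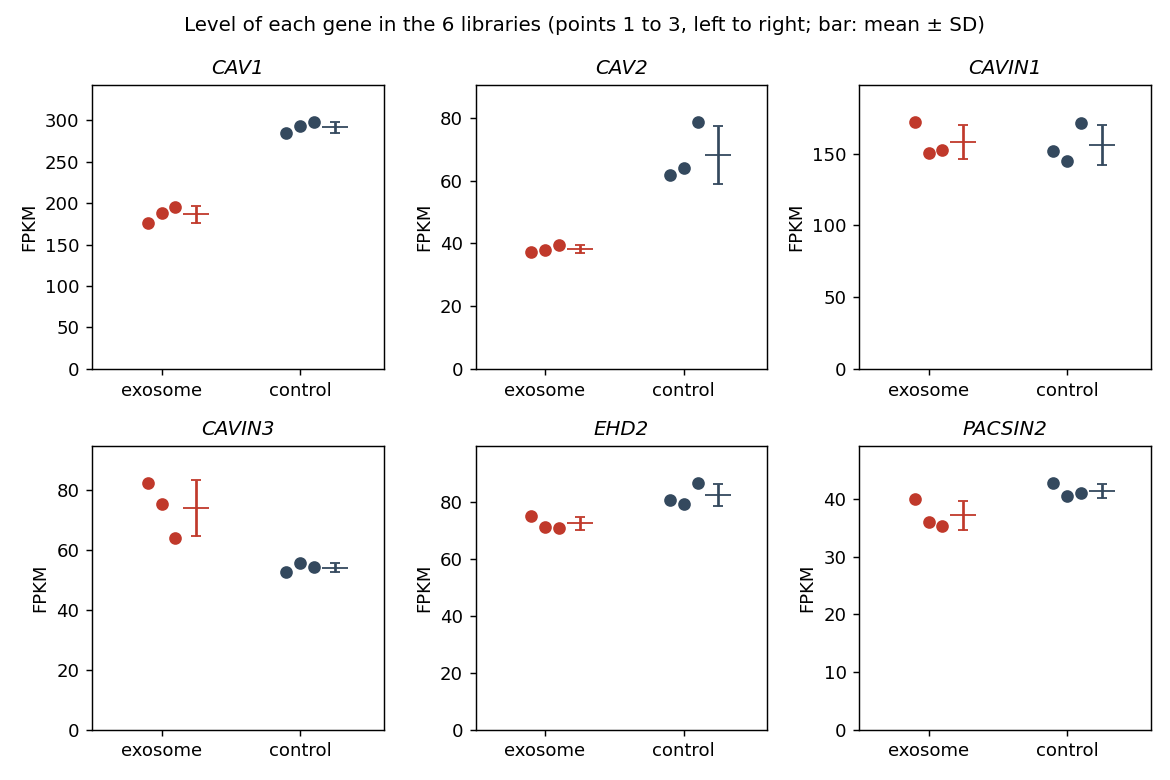
Level of each member in FPKM on the vertical axis, with exosome libraries (red) left of control libraries (dark), points for libraries 1 to 3 and a bar for the mean ± SD of 3. CAV1 and CAV2 show the widest gaps, CAVIN3 is higher with exosomes (73.8 against 54.1 FPKM), and the CAVIN1 groups overlap.

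**Figure D2:**
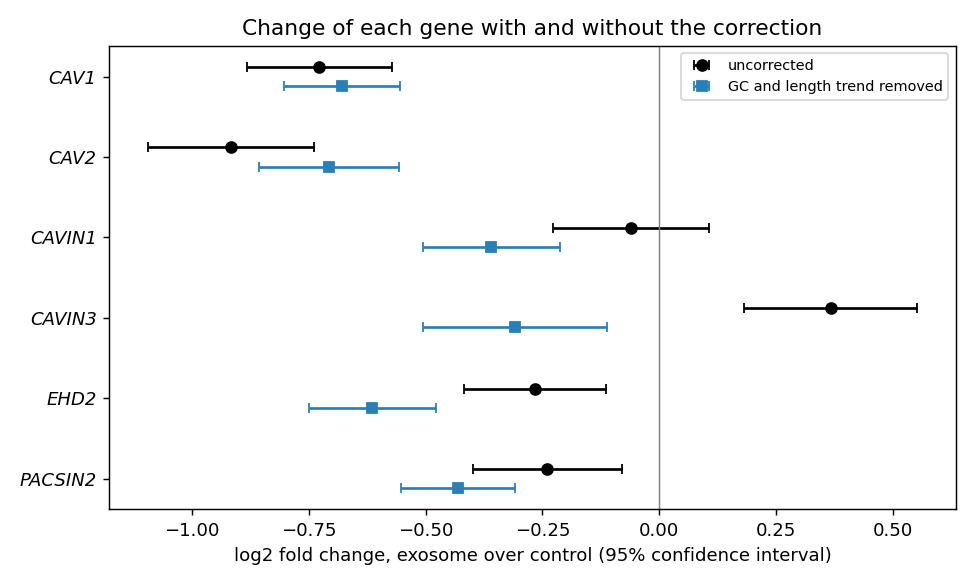
Log2 fold change of exosome over control with its 95% confidence interval, uncorrected (black) and with the GC and length trend removed (blue). Uncorrected values run from -0.92 (CAV2) to 0.37 (CAVIN3), and all 6 corrected values lie between -0.71 and -0.31.

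The GC trend bore on the members unequally, because their transcripts span 40.7% (CAV2) to 67.1% GC (CAVIN3). From the lowest to the highest of 10 GC bins, the median log2 fold change of the tested genes ran from -0.39 to 0.49. The 1133 genes within 1 percentage point of the GC content of CAV2 had a median of -0.28 (quartiles -0.45 and -0.064), above the -0.92 of CAV2. For CAV1 the 902 such genes had a median of -0.093 (quartiles -0.30 and 0.14), above its -0.73. CAVIN1, EHD2 and PACSIN2 also lay below the lower quartile of the genes of like GC content, whose medians were 0.36, 0.42 and 0.17. CAVIN3 lay below the median of 188 such genes, 0.63, and inside their quartiles of 0.34 and 0.89. Where the GC trend came from was not tested.

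**Figure D3:**
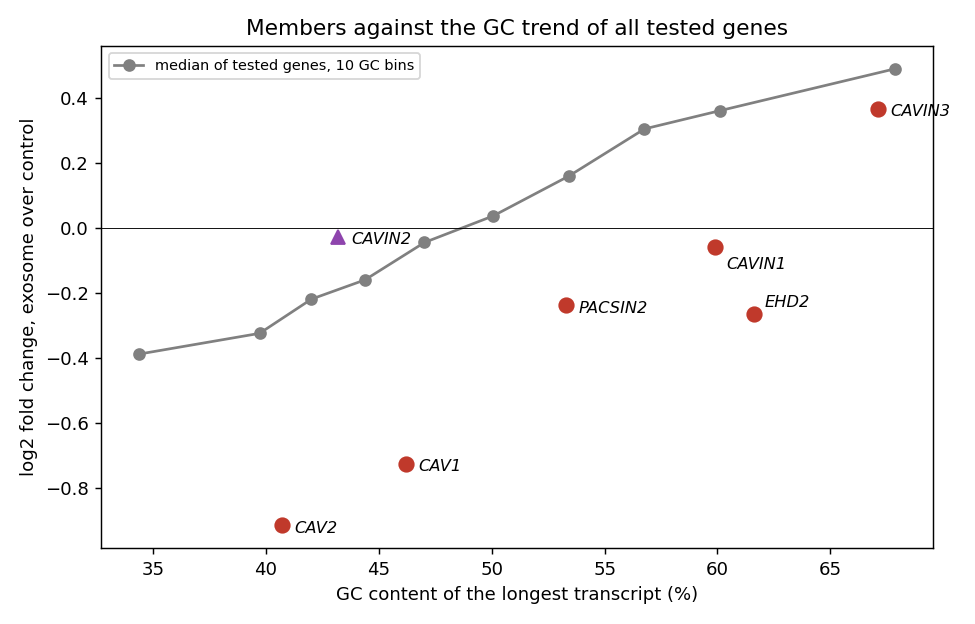
Uncorrected log2 fold change against GC content (%) of the longest transcript for the 6 members (red), CAVIN2 (purple triangle) and the median of all tested genes in 10 GC bins (grey line). Every member lies below the grey line, the lowest values being -0.92 (CAV2) and -0.73 (CAV1), while CAVIN2 at -0.029 lies above it.

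The order of levels per length differed between the groups. With exosomes CAV1 and CAVIN1 stood at the top (187 and 158 FPKM) without overlap, followed by CAVIN3 and EHD2, whose ranges overlapped, and by CAV2 and PACSIN2, whose ranges overlapped too. In control the order was CAV1, CAVIN1, EHD2, CAV2, CAVIN3 and PACSIN2, with no overlap between neighbours, although the lowest EHD2 library (79.3 FPKM) was within 1 FPKM of the highest CAV2 library (78.8 FPKM). Ratios within a library do not depend on how libraries are scaled, and 5 of them were compared. CAV1 over CAVIN1 was 1.02, 1.251 and 1.28 in exosome libraries 1 to 3, against 1.88, 2.02 and 1.74 in control libraries 1 to 3. The highest exosome library lay below the lowest control library, and CAV1 and CAVIN1 were nearest to parity in exosome library 1. CAV1 over CAV2 was 4.72, 4.97 and 4.94 with exosomes, against 4.61, 4.56 and 3.78 in control, the ratio that differed least of the 5 on the log2 scale. CAVIN3 over CAVIN1 averaged 0.466 ± 0.0419 with exosomes and 0.348 ± 0.0337 in control. EHD2 over CAV1 averaged 0.389 ± 0.0342 and PACSIN2 over CAV1 0.200 ± 0.0247 with exosomes, against 0.282 ± 0.0102 and 0.142 ± 0.00718 in control. In each of the 5 ratios the groups did not overlap. Of single genes tested 59.5% did not overlap in CPM either, and ratios of other gene pairs were not compared. Each of the 5 had p = 0.1 in a two-sided exact permutation test (adjusted p = 0.1 over the 5). This is the smallest p that 3 against 3 libraries allow and cannot pass the threshold. On the log2 scale CAV1 over CAVIN1 differed by -0.67 (exosome minus control), or -0.32 as the difference of the corrected fold changes. CAVIN3 over CAVIN1 differed by 0.42 and by 0.050 when corrected, EHD2 over CAV1 by 0.46 and 0.065, PACSIN2 over CAV1 by 0.49 and 0.25, and CAV1 over CAV2 by 0.18 and 0.027. Without control replicate 3 the uncorrected difference of CAV1 over CAV2 was 0.088.

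**Figure D4:**
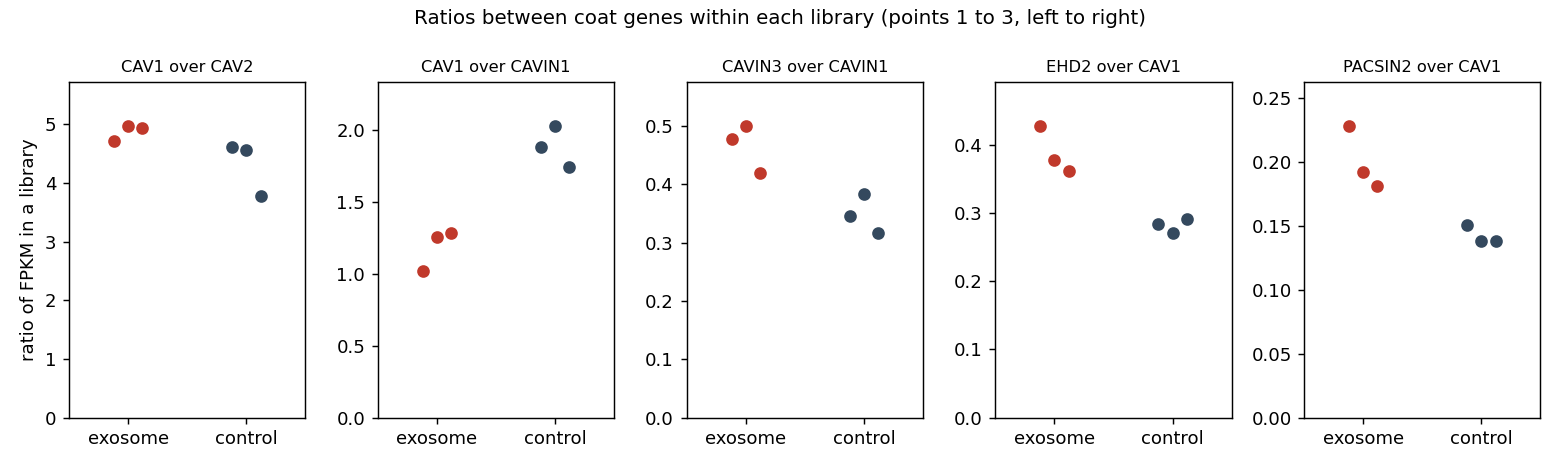
Ratios of FPKM between coat genes within each library on the vertical axis (each panel from 0), with exosome libraries (red) left of control libraries (dark). CAV1 over CAVIN1 is 1.02 to 1.28 with exosomes and 1.74 to 2.02 in control, and CAV1 over CAV2 shows the smallest relative difference.

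The related genes of the caveolin, cavin, EHD and pacsin families mostly did not pass the test. Of 8 such genes, 6 were tested. In edgeR's test 1 was higher and 0 were lower (2 and 1 at an unadjusted p under 0.05), or 16.7% and 0.0%, beside 25.6% and 26.1% of all genes tested. DESeq2 and limma-voom also gave 1 and 0. Corrected, 0 were higher, also at an unadjusted p under 0.05, and 1 was lower, EHD4, whose call was lost in 5 of 6 fits that left out a library (adjusted p = 0.06 to 0.23 in edgeR; without control replicate 3, -0.12). CAVIN2, a cavin that helps to bend the caveolar membrane, had 24.9, 25.9 and 25.4 FPKM in exosome libraries 1 to 3, against 23.8, 24.1 and 25.7 FPKM in control libraries 1 to 3. Its groups overlapped and its log2 fold change of -0.029 ± 0.080 did not pass (95% confidence interval -0.19 to 0.14; corrected 0.12, adjusted p = 0.162, edgeR). The muscle forms were near the floor: CAV3 had 0 to 2 reads per library with exosomes and 0 to 4 in control, and CAVIN4 6 to 22 reads with exosomes and 15 to 18 in control. PACSIN3, a relative of PACSIN2, averaged 11.4 ± 0.432 FPKM with exosomes and 7.42 ± 0.829 FPKM in control (log2 fold change 0.54, adjusted p = 0.000869, edgeR). After correction PACSIN3 was at 0.032 and was not called (adjusted p = 0.849, edgeR). EHD1 and EHD4, which act in endocytic recycling, had log2 fold changes of 0.19 (corrected -0.10) and -0.22 (corrected -0.21, adjusted p = 0.0497, edgeR), of which the uncorrected did not pass. With the replicate number as a block, both uncorrected values passed (0.19 and -0.22, adjusted p = 0.0193 and 0.033, edgeR). EHD3 was below 1 FPKM in both groups.

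Among 13 genes that bind or regulate caveolae, 3 were higher and 3 lower (median log2 fold change -0.076; corrected 1 higher and 4 lower). That is 23.1% each way, near the 25.6% higher and 26.1% lower of all genes tested (corrected 7.69% and 30.8%, beside 18.2% and 17.3%). ROR1, a receptor that holds CAVIN1 and CAV1 together at the membrane, had 5.72, 5.75 and 6.28 FPKM in exosome libraries 1 to 3, against 8.004, 9.20 and 8.48 FPKM in control libraries 1 to 3. ROR1 fell by 0.61 on the log2 scale (adjusted p = 1.84e-05; corrected -0.39, adjusted p = 0.000677, edgeR), with no overlap between the groups. PRKCD, the kinase that CAVIN3 binds, rose to 18.2 ± 0.942 FPKM with exosomes, against 10.8 ± 1.37 FPKM in control (log2 fold change 0.67, corrected 0.37, adjusted p = 2.16e-05 and 0.00231, edgeR). UBXN6, which works with VCP in sorting ubiquitinated CAV1 to lysosomes, had a log2 fold change of 0.50 that was not called after correction (0.14, adjusted p = 0.119, edgeR). YES1, a Src family kinase, had -0.48, and was not called after correction either (-0.14, adjusted p = 0.0874, edgeR).

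Of 18 tested receptors, channels and transporters described in caveolae, 0 were higher and 9 lower in edgeR's test (median -0.19; corrected 3 higher and 10 lower, median -0.24). These 9 of 18 lower, and 55.6% when corrected, stand beside 26.1% and 17.3% of all genes tested. DESeq2 and limma-voom also gave 0 and 9, and at an unadjusted p under 0.05 edgeR gave 0 higher and 10 lower. BDKRB2, the bradykinin B2 receptor, had 1.04, 0.952 and 0.920 FPKM in exosome libraries 1 to 3, against 2.15, 2.10 and 3.01 FPKM in control libraries 1 to 3, a log2 fold change of -1.40 (corrected -1.38, adjusted p = 4.85e-07, edgeR). TGFBR1, the type I receptor for TGF-beta, had 14.2 ± 0.734 FPKM with exosomes and 25.7 ± 4.20 FPKM in control (-0.94, corrected -0.56, adjusted p = 1.22e-05, edgeR). BMPR2, a receptor for bone morphogenetic proteins, had 11.2 ± 1.22 FPKM with exosomes and 19.0 ± 1.47 FPKM in control (-0.85, corrected -0.33, adjusted p = 0.000191, edgeR). The related BMPR1A was lower by -0.56, but not called after correction (-0.096, adjusted p = 0.288, edgeR).

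Of 8 tested flotillin and membrane raft genes, 1 was higher and 3 lower (12.5% and 37.5%; median -0.064; corrected 2 and 2 of the 8). Beside this list and those below, 25.6% of all genes tested were higher and 26.1% lower (corrected 18.2% and 17.3%). PAG1, an adaptor that sits in rafts, was at 3.27 ± 0.261 FPKM with exosomes and 5.30 ± 0.547 FPKM in control (-0.78, corrected -0.32, adjusted p = 0.00275, edgeR). FLOT2, which encodes flotillin-2, rose before correction (0.27), and CD59, a complement inhibitor, and ERLIN2 fell (-0.35 and -0.28), but none of these 3 calls held with the correction (-0.083, -0.12 and -0.0037). Of 21 tested genes of the clathrin coat, the other main route of endocytosis, 6 were higher and 7 lower (28.6% and 33.3%; median 0.064; corrected 2 and 6, or 9.52% and 28.6%). The heavy chain CLTC had 124 ± 11.5 FPKM with exosomes and 184 ± 16.3 FPKM in control (-0.65, corrected -0.30). The adaptors PICALM (-0.59, corrected -0.40) and FCHO2 (-0.66, corrected -0.27) were lower as well, although the corrected FCHO2 value missed the threshold without exosome replicate 2 (adjusted p = 0.0633, edgeR). Of 17 tested genes that supply cholesterol, a lipid caveolae depend on, 2 were higher and 8 lower (11.8% and 47.1%; median -0.23; corrected 2 and 9, or 11.8% and 52.9%). INSIG1, which restrains cholesterol synthesis when sterols are plentiful, had 15.7, 17.2 and 16.1 FPKM in exosome libraries 1 to 3, against 27.2, 24.9 and 28.9 FPKM in control libraries 1 to 3 (-0.81, corrected -0.76, adjusted p = 1.06e-07, edgeR). The synthesis enzyme HMGCS1 (-0.55, corrected -0.31) was lower too.

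**Figure D5:**
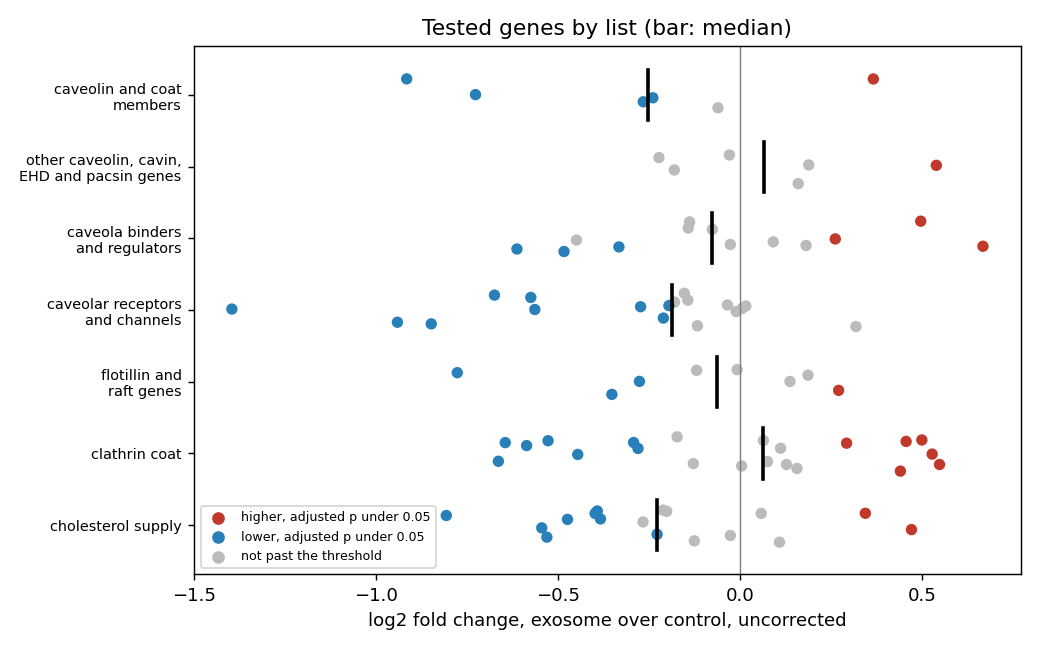
Uncorrected log2 fold change of exosome over control for each tested gene by list, coloured by its call at an adjusted p of 0.05, with a bar for the median of the list. Caveolar receptors and channels have 9 genes lower and 0 higher, while the clathrin coat has 6 higher and 7 lower. Of all genes tested, 25.6% were higher and 26.1% lower.

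The genes whose profile over the 6 libraries was most like that of CAV1 were DZIP3, FN1 and PIK3R1, with a root mean square distance of 0.027, 0.032 and 0.038 between log2 CPM profiles centred on their means. DZIP3 encodes a ubiquitin ligase, FN1 fibronectin and PIK3R1 a regulatory subunit of phosphoinositide 3-kinase. Their uncorrected log2 fold changes were -0.73, -0.74 and -0.71, near that of CAV1 because they were chosen by profile over these same libraries. Their corrected ones were -0.38, -0.39 and -0.36, against -0.68 for CAV1. CAV2 was 729th nearest to CAV1 among the tested genes, at 0.13, and EHD2 2900th. The nearest to CAVIN1 were ZNF329, CAPN1 and URGCP (0.026, 0.028 and 0.028), and EHD2 was 1137th, at 0.11.

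Markers were compared because caveolae are abundant in fibroblasts, the cells that released the vesicles. Over all genes tested, 25.6% were higher and 26.1% lower (corrected 18.2% and 17.3%). Of 10 fibroblast markers, 7 were in the table and 3 were tested, of which 2 were lower with exosomes (corrected 3 lower). Their summed level was 48.9 to 54.2 CPM with exosomes and 104 to 114 CPM in control. COL1A1 and COL1A2, the chains of collagen I, made up 84.2% to 88.0% of it with exosomes and 91.8% to 93.1% in control, and most of the rest was PDGFRB (84 to 97 reads with exosomes and 88 to 100 in control; log2 fold change -0.27, not called, and corrected -0.43, adjusted p = 0.0423, edgeR). PDGFRA, THY1, FAP and COL3A1 had 0 to 3 reads per library with exosomes and 0 to 5 in control. None of 3 tested endothelial markers was called by edgeR, DESeq2 or limma-voom, or at an unadjusted p under 0.05, corrected or not, and the 4 of the list summed to 11.7 to 13.3 CPM with exosomes and 10.6 to 12.3 CPM in control. Of 4 immune markers, PTPRC and CD3E had 0 to 2 reads per library with exosomes and 0 to 4 in control. CD14 was higher (1.52, corrected 1.13), while CD68 was called higher only before correction (0.21, adjusted p = 0.0455; corrected -0.11, adjusted p = 0.225, edgeR), and the list summed to 254 to 275 CPM with exosomes and 163 to 194 CPM in control. Of 12 epithelial markers 11 were in the table, with sums of 3667 to 3988 CPM with exosomes and 4261 to 4477 CPM in control. Of 8 tested, 4 were lower (KRT8, KRT18, KRT17 and CDH1) and, corrected, 6. CDH1, which encodes E-cadherin, had 4.16 ± 0.186 FPKM with exosomes and 10.35 ± 0.528 FPKM in control (-1.39, corrected -1.34, adjusted p = 7.8e-10 and 3.45e-10, edgeR). KRT8, KRT18 and KRT19 averaged 424, 400.3 and 689 FPKM with exosomes and 511, 496 and 669 FPKM in control. Of the squamous and basal markers, KRT5, KRT6A and KRT14 had 0 to 6 reads per library with exosomes and 0 to 3 in control, KRT17 13 to 16 and 37 to 49, TP63 28 to 32 and 13 to 25, and SOX2 45 to 97 and 46 to 60. All 6 were thus at low levels, beside a label of squamous carcinoma, with SOX2, TP63 and KRT17 above KRT5, KRT6A and KRT14. Any part of these markers in the caveolar values was not tested.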

How the data were processed

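RNA of 3 exosome and 3 control cultures was extracted with Trizol and libraries were prepared by a NEBNext Ultra kit, as the labels' protocols state. STAR and GRCh38 (hg38) are named in the submitters' processing notes, while the counter, its annotation and its strand setting were not found in the sources used. The deposited table holds the authors' whole-number read counts per gene. It also holds their normalised signal (counts divided by 1 factor per library), FPKM, log2 fold changes and p-values, per the file headers. The FPKM equal the counts per kilobase of the authors' gene length and per library total. Counts were used for tests, FPKM for levels and ratios, and the signal for none.

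The main test was the quasi-likelihood test of edgeR 4.0.16, run in R 4.3.3 (filterByExpr, TMM, robust fit, group as the only term). P-values were adjusted over 12449 genes by the Benjamini-Hochberg method at a threshold of 0.05, and all 6 members passed the filter on low counts. The corrected fit removed, in each library, a loess trend (span 0.3) of log2 counts on GC content and length of the longest GENCODE 29 transcript, entered as an edgeR offset. Library totals put 1 CPM at 11.3 to 13.3 reads. The main and the corrected fit were also run on simulated data. The trend added there was the one fitted to these libraries, so that run cannot show whether the correction removes real change. The table counts positions from 0, and positions are printed counted from 1. Alternatives were DESeq2 1.42.0, limma-voom (limma 3.58.1), other scalings and filters, the replicate number as a block, and the omission of each library in turn.

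The members and the 6 lists were chosen with earlier results of these data known. Named genes were all members, the caveolin and cavin paralogs, up to 4 tested genes per list (3 for clathrin and cholesterol) with the smallest adjusted p, and the 3 genes nearest to CAV1 and to CAVIN1. A gene that this rule takes is not reported here.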

Additional observations from a re-analysis of the deposited data

How the results depend on the processing

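CAV1, CAV2 and EHD2 kept their direction and call under every alternative run. No within-library ratio changed direction when each library was left out in turn, all uncorrected. Ratios of counts give the same differences by construction, because FPKM divide each gene by a fixed length, so they are no separate check. Corrected ratios were not rerun in this way. Without control replicate 3 the corrected value was -0.6678 for CAV1 and -0.5996 for CAV2, the reverse of their order with all libraries. Values are log2 fold changes of exosome over control, with edgeR unless named. With the GC and length correction, CAVIN1 was -0.3592, CAVIN3 -0.3089, CAVIN2 0.1187, EHD1 -0.1010 and FLOT2 -0.0827. With the correction and a replicate block they were -0.355, -0.2991, 0.1192, -0.1002 and -0.0787, and 0 members were called higher in both fits. Genes called lower numbered 2148 with the correction alone, against 3244 without it. Scaled by library totals alone, CAVIN1 was 0.0209, CAVIN2 0.0522, ZNF329 0.0053, CAPN1 0.0126, URGCP 0.0336 and PACSIN2 -0.1572. At a threshold of 0.01 the PACSIN2 value of -0.2397 was not called.

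Leaving out each library in turn gave ranges, first uncorrected and then corrected, of -0.1191 to 0.0184 and -0.4142 to -0.2661 for CAVIN1, 0.2858 to 0.4507 and -0.3962 to -0.1646 for CAVIN3, -0.2913 to -0.1992 and -0.4566 to -0.3956 for PACSIN2, -0.0416 to 0.0110 and 0.1001 to 0.1506 for CAVIN2, 0.4912 to 0.6531 and -0.0388 to 0.0845 for PACSIN3, and 0.1286 to 0.2382 and -0.1506 to -0.0629 for EHD1. They were -0.0016 to 0.3503 and -0.1374 to 0.2326 for EHD3, 0.2471 to 0.3386 and -0.1365 to 0.0098 for FLOT2, -0.3180 to -0.2191 and -0.0483 to 0.0312 for ERLIN2, -0.1400 to -0.0162 and -0.0962 to 0.0248 for ZNF329, -0.127 to -0.001 and -0.4895 to -0.3416 for CAPN1, and -0.0963 to 0.0061 and -0.0527 to 0.0136 for URGCP. Members called higher were 1 and 0, members called lower 3 to 4 and 5 to 6, genes called higher 2503 to 3234 and 1639 to 2312, genes called lower 2608 to 3375 and 1445 to 2044, and genes of the 6 lists called higher 10 to 14 and 7 to 9. The cause of these shifts was not tested.

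Libraries with the same number correlated at 0.0664, 0.103 and 0.206 in their deviations from the group means. The numbers were therefore not taken to pair the cultures. Each library correlated best with its own number, a weak hint from the data and not from the design. Exosome library 1 correlated almost as well with control library 2 (0.0659), and the 0.206 belongs to the libraries numbered 3, which stood apart within their groups. With the replicate block 3444 genes were called higher and 3524 lower, and 1 and 4 members, as without it. Of the other named genes, the block changed the uncorrected calls of EHD1 (0.1899) and EHD4 (-0.2191), both then past the threshold. With 3 libraries a group the within-library ratios cannot pass a threshold of 0.05, and members at 799 reads or more in every library are not limited by depth.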
